A study of Coprinopsis cinerea with 4 samples.

Results

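The genes described here were among the most abundant in both sequenced stages of the mushroom Coprinopsis cinerea, oidia and hyphae. They were chosen by raw read count: a gene belonged to the set when it ranked 300 or better, with 1 the highest, in each of the 4 libraries. This held for 97 of the 13342 genes, which is 0.727%. Oidia are asexual spores that the mycelium sheds as single cells, and hyphae are the filaments of the growing mycelium. Each stage had 2 poly(A)-selected libraries of strain okayama7#130, and the labels name no other treatment, genotype or age. Libraries of hyphae were made with the NEBNext Ultra kit for Illumina and those of oidia with the SOLiD Total RNA-seq kit. Stage and kit thus cannot be told apart in any stage difference below. In bulk RNA of this kind, fewer cells of a type and less RNA per cell cannot be told apart either.

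In fungi, as in other eukaryotes, a small number of genes provides a large part of the messenger RNA. In growing cells these commonly include genes for the translation machinery, central metabolism and the cell surface, while spores carry stored messenger RNA that can be translated on germination. The sources used here give the genes by locus identifier with no product name, so no function is attached to any member, and no stage marker gene could be checked.

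Where 4 values of a gene are listed, they follow the order hyphae replicate 1, hyphae replicate 2, oidia replicate 1, oidia replicate 2. Because the rule used the counts of all 4 libraries, ranks, shares and fold changes of members are a description, and no p-value is given for the stage difference of a member. The libraries held 4586306, 3546635, 7519091 and 6128727 reads on genes. The least abundant member of each library had 2119, 1593, 2838 and 2281 reads, and the median member 4075, 3211, 5872 and 4501. No member was thus sparsely counted in any library.

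About 1 in 3 of the leading genes of a stage was shared with the other stage. The limit of 300 was met in both hyphae libraries by 295 genes and in both oidia libraries by 290 genes. The 97 members were 32.9% of the hyphal list and 33.4% of the oidia list. Another 198 genes met the limit in both hyphae libraries but not in both oidia libraries, and 193 the reverse. The overlap was thinner at the top of the lists. The stages shared 1 gene at a limit of 10, 6 genes at 50, 17 at 100 and 44 at 200. At a limit of 1000 they shared 427 genes, 44.1% of the hyphal list and 43.8% of the oidia list. These overlaps depend on ranks within a library, which dividing the library by a single factor does not change. Cyclic loess, which shifts genes by different amounts, can change them.

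**Figure D1:**
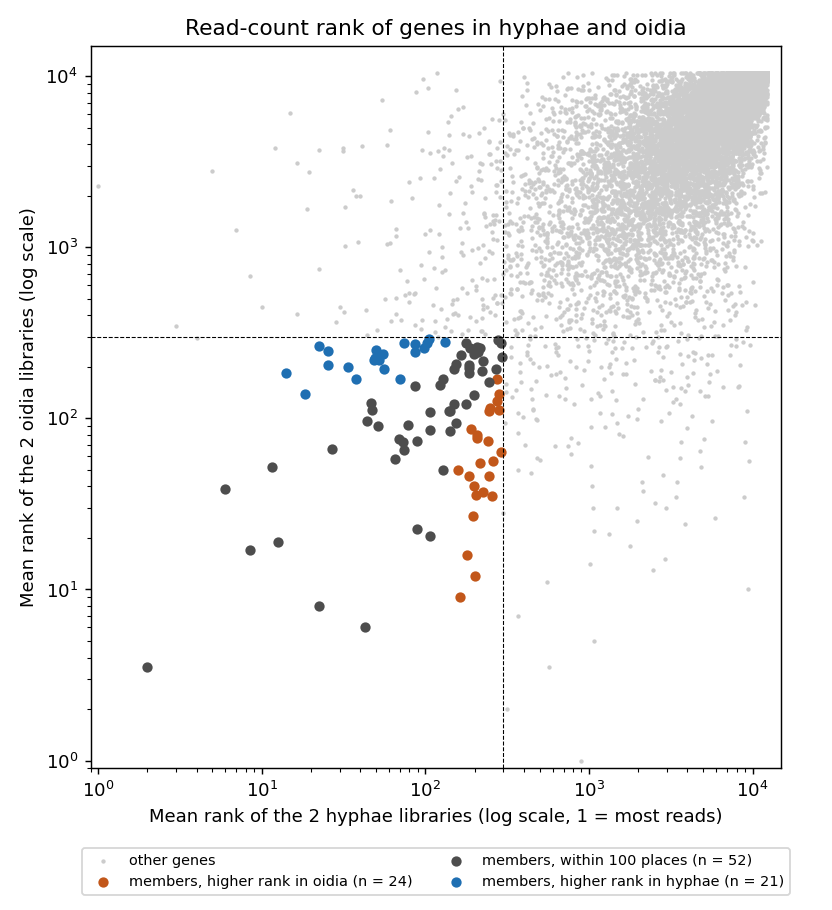
Mean read-count rank of each gene in the 2 hyphae libraries (x axis, log scale) and the 2 oidia libraries (y axis, log scale), with the limit of 300 dashed, other genes in light grey, and members coloured by lean (24 orange toward oidia, 21 blue toward hyphae, 52 dark grey within 100 places). The 97 members fill the corner of the best ranks, and CC1G_10834, at mean ranks of 2 and 3.5, sits alone at its tip.

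The members took a larger share of the gene reads in oidia than in hyphae. Their shares were 15.5%, 15.6%, 23.2% and 23.3%, so the libraries of a stage lay close together and the stages did not overlap. Oidia reads were more concentrated in general, since the 300 most abundant genes of a library held 45.5% ± 0.256 of gene reads in hyphae and 72.4% ± 0.276 in oidia (SD, n = 2 per stage). Members made up 34.2% ± 0.123 of those leading reads in hyphae and 32.1% ± 0.119 in oidia (SD, n = 2 per stage). Among the members themselves, 50% of the reads fell on 16, 16, 5 and 4 genes.

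CC1G_10834 had the most reads of the set in all 4 libraries. Its counts were 106740, 82923, 393783 and 288276 reads, and its ranks among all genes were 2, 2, 3 and 4. As shares of gene reads these were 2.33%, 2.34%, 5.24% and 4.70%, so both oidia libraries lay above both hyphae libraries. Within the set it alone held 15.0%, 15.0%, 22.5% and 20.2% of the reads. The table lists inside this gene a region classed as orphan, on chromosome 2 from 2721406 to 2722291, 886 bases long. An orphan is usually a gene without a recognised relative in other species. Here and below the class is the table's own, and positions are those of the classed region, not of the whole gene. The build of these coordinates was not stated in the sources used. The sign of this gene's fold change depended on how libraries were scaled, with a log2 fold change (hyphae over oidia) of -2.64 under TMM, -1.09 under total counts and 0.27 under cyclic loess.

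CC1G_06090 and CC1G_05406 came next by their worst rank, both with regions classed as orthologous, a name for genes with a counterpart in other species. CC1G_06090, with its region on chromosome 2 from 2985719 to 2989018, ranked 8, 9, 17 and 17 and held 0.535%, 0.524%, 0.673% and 0.721% of gene reads. CC1G_05406, with its region on chromosome 8 from 232036 to 233097, ranked 12, 13, 19 and 19 and held 0.456%, 0.462%, 0.505% and 0.521%. Both genes had a better rank in hyphae and yet a larger share of reads in oidia. Their TMM log2 fold changes of -1.94 and -1.71 turned to 0.45 and 0.61 under cyclic loess.

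CC1G_12348 and CC1G_03676 were high in both stages and far higher in oidia. CC1G_12348, with an orphan region on chromosome 10 from 1397332 to 1399622, held 0.341%, 0.341%, 2.11% and 2.26% of gene reads, at ranks 22, 23, 8 and 8. CC1G_03676, with an orthologous region on chromosome 1 from 2005586 to 2006612, held 0.229%, 0.224%, 2.30% and 2.69%, at ranks 42, 43, 6 and 6. Their log2 fold changes of -4.23 and -5.01 kept their direction under each of the 5 scalings used here.

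CC1G_02721, CC1G_06744 and CC1G_04470, all orthologous, took larger shares in hyphae. CC1G_02721 on chromosome 4 held 0.685%, 0.661%, 0.204% and 0.205% of gene reads, at ranks 6, 6, 39 and 38. CC1G_06744 on chromosome 1 held 0.475%, 0.474%, 0.135% and 0.154%, at ranks 11, 12, 59 and 45. CC1G_04470 on chromosome 3 held 0.322%, 0.313%, 0.129% and 0.123%, at ranks 27, 27, 65 and 67. In all 3 genes the stages did not overlap on the share scale. Under TMM their log2 fold changes were only 0.17, 0.17 and -0.21, and that of CC1G_04470 turned to 1.34 under total counts.

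CC1G_02036 and CC1G_03297, both orthologous and on chromosome 3, complete the 10 members with the best worst rank. Their ranks hardly moved, at 66, 65, 63 and 52 for the first and 74, 72, 73 and 72 for the second. CC1G_02036 held 0.155%, 0.158%, 0.132% and 0.145% of gene reads, and CC1G_03297 held 0.140%, 0.147%, 0.118% and 0.119%. Shares in hyphae were slightly above those in oidia, while the TMM log2 fold changes were -1.37 and -1.27 and turned to 0.18 and 0.28 under total counts.

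Ranks within the set were stable between replicates and hardly related between stages. Across the 97 members the rank correlation (Spearman) was 0.994 between hyphae replicates, 0.989 between oidia replicates and 0.0570 between the mean ranks of the stages. The rule confines every rank to 300 places and genes of a library share its depth, so these values only describe. After TMM scaling a member's pair of hyphae libraries differed by a median ratio of 1.03 and at most 1.12, and its pair of oidia libraries by a median of 1.05 and at most 1.21. Over genes with at least 100 reads in both libraries of a stage the medians were 1.06 (5106 genes, hyphae) and 1.07 (3684 genes, oidia). Those genes reach down to 100 reads while no member had fewer than 1593, so the medians do not compare genes of equal depth. Among members the largest ratio was that of CC1G_08572, with 9593, 7058, 6789 and 4501 reads. CC1G_03676 and CC1G_06744 followed with oidia ratios of 1.19 and 1.16.

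By mean rank, 24 members stood at least 100 places better in oidia, 21 at least 100 places better in hyphae, and 52 lay within 100 places. That step was set after the values were seen. The 52 members held most of the set's reads, 9.67% ± 0.0161 of all gene reads in hyphae and 15.3% ± 0.0120 in oidia (SD, n = 2 per stage). The step itself leads to this, since a member ranked 100 or better in every library cannot differ by 100 places. Nor were these 52 members equal in level between stages, as their TMM log2 fold changes ran from -5.01 to 0.17. The 24 oidia-leaning members held 1.43% ± 0.00164 in hyphae and 6.99% ± 0.0282 in oidia, and the 21 hyphae-leaning members 4.46% ± 0.0493 and 0.987% ± 0.0139 (SD, n = 2 per stage). The closest mean ranks belonged to CC1G_03297, CC1G_10834, CC1G_00929, CC1G_15704 and, level with CC1G_08317, CC1G_05406. CC1G_00929 ranked 103, 111, 102 and 116, and CC1G_15704 ranked 188, 184, 185 and 181.

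The members with the largest folds toward oidia had very unequal read counts in the stages. CC1G_14508, with a paralogous region on chromosome 4 from 3387244 to 3387348, had counts of 3501, 2706, 146939 and 121385, at ranks 164, 164, 9 and 9. Its log2 fold change was -6.24 ± 0.07 (SE) under TMM and -3.99 under cyclic loess. The SEs given here and below do not cover the choice of scaling. CC1G_01666, with an orthologous region on chromosome 1 from 2243633 to 2245921, had counts of 2816, 2389, 97898 and 80925 and a log2 fold change of -5.90 ± 0.07 (SE). Both genes held over 1% of gene reads in each oidia library and under 0.1% in each hyphae library. CC1G_06894, with an orthologous region on chromosome 3 from 2451192 to 2453419, had counts of 3376, 2393, 58785 and 49379 and a log2 fold change of -5.04. CC1G_11460, an orphan on chromosome 6, had counts of 3090, 2287, 24066 and 19170 and a log2 fold change of -3.81. The libraries of the stages were again far apart in each. CC1G_10101, orthologous on chromosome 1, had counts of 2367, 1879, 16765 and 13355 and a log2 fold change of -3.62. CC1G_08677, an orphan on chromosome 6, had counts of 4879, 3995, 34396 and 26865 and a log2 fold change of -3.58. With CC1G_03676 and CC1G_12348 these are the 8 largest folds toward oidia, and all 8 kept their direction under the 5 scalings, the nearest to 0 being -1.53 for CC1G_08677 under cyclic loess.

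Folds toward hyphae were smaller under TMM. CC1G_10395, with a paralogous region on chromosome 2 from 3259652 to 3260608, had counts of 15304, 12284, 3080 and 2398, at ranks 23, 22, 263 and 268. Its log2 fold change was 1.54 ± 0.06 (SE). CC1G_07346, with an orthologous region on chromosome 3 from 1964448 to 1965415, had counts of 14793, 11881, 3331 and 2454 and a log2 fold change of 1.41. CC1G_01131, with an orphan region on chromosome 2 from 1022153 to 1022519, ranked 14, 14, 172 and 196. It held 0.418%, 0.450%, 0.0602% and 0.0518% of gene reads and had a log2 fold change of 1.40. In these 3 genes even the raw counts of the shallower hyphae libraries exceeded those of oidia. CC1G_15739, paralogous on chromosome 11, had counts of 15156, 11374, 3783 and 3053 and a log2 fold change of 1.15. CC1G_07172 on chromosome 8 had 12725, 10293, 4061 and 3017 reads and a log2 fold change of 0.91. CC1G_04378, an orphan on chromosome 1, had 16601, 12696, 5132 and 4373 reads and a log2 fold change of 0.82. The last of the 8 largest folds toward hyphae were the orthologous CC1G_07569 and CC1G_03794, at 0.70 and 0.59. All 8 kept their direction under the 5 scalings, and total counts gave 2.14 to 3.09.

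**Figure D2:**
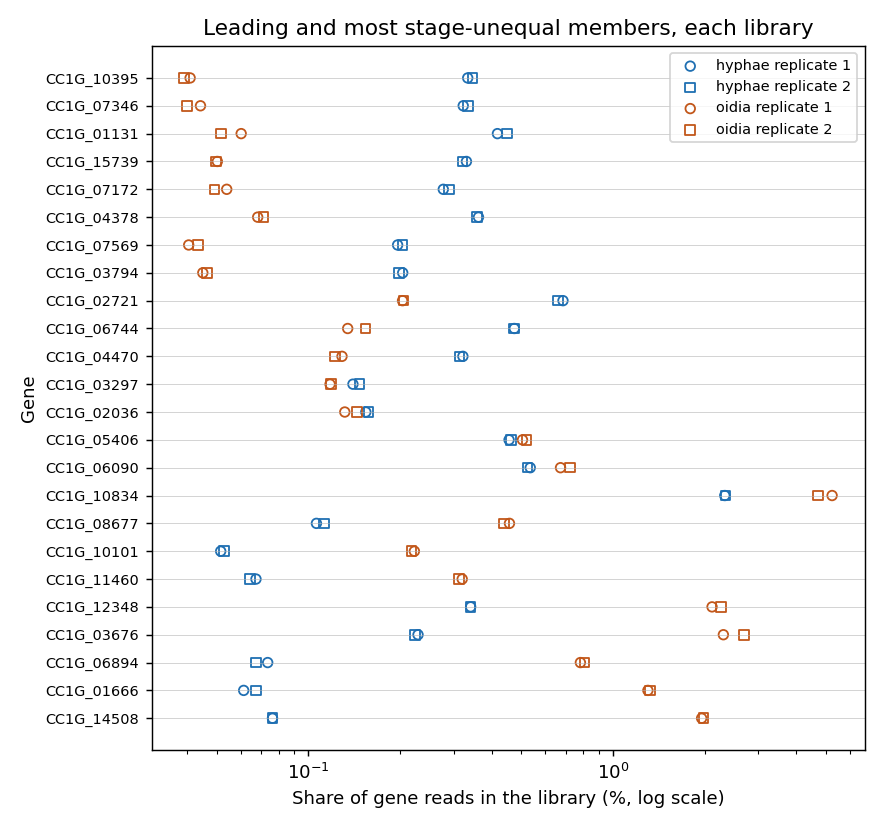
Share of gene reads (x axis, percent, log scale) of 24 members named for abundance or for stage difference, with 1 symbol per library and genes sorted by TMM log2 fold change. Replicates lie close together, and the stages are furthest apart at CC1G_14508 in the bottom row (blue hyphae, orange oidia), at 0.0763% in both hyphae libraries and 1.95% and 1.98% in oidia.

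How many members were higher in a stage rested on library scaling. TMM log2 fold changes of the 97 members ran from -6.24 to 1.54 with a median of -1.27, and the 9866 tested genes had a median of 0.25. The middle 50% of the members lay between -2.15 and -0.24, and that of all tested genes between -1.16 and 1.68. In 36 members the fold was under 2, 57 were at least 2-fold lower in hyphae and 4 at least 2-fold higher. In the edgeR quasi-likelihood fit of all genes, 91 members passed an adjusted p of 0.05, where 82.9% of all tested genes did. Of the members 16 were higher in hyphae and 75 lower, where 45.2% and 37.8% of all tested genes were. With total counts 55 were higher and 35 lower, where 75.1% and 15.7% of all tested genes were. With cyclic loess and limma-voom 60 were higher and 31 lower, where 37.4% and 36.6% of all tested genes were. These counts are no test of the members and nothing is read from them, since the rule used the same libraries. Over the 5 scalings 35 members were lower in hyphae throughout, 17 were higher throughout, and the sign of the other 45 changed. The median of all tested genes itself moved, from 0.015 under cyclic loess to 1.79 under total counts. The same sign counts and 2-fold counts over all tested genes are not given here, so they show no trait particular to the members. The member median lay 1.51 below that of all tested genes under TMM, and 0.43 above it under cyclic loess, which removes trends with abundance.

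**Figure D3:**
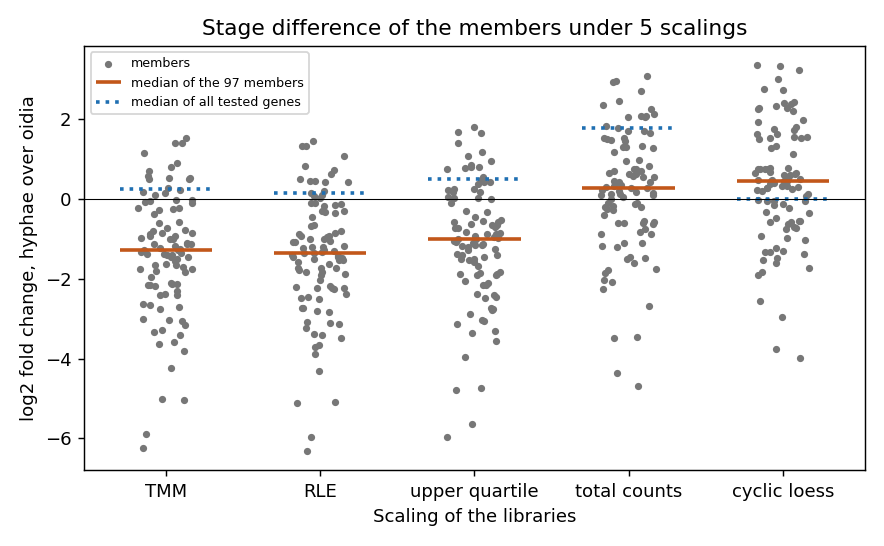
Log2 fold change, hyphae over oidia (y axis), of the 97 members (points, spread sideways at random) under 5 scalings of the libraries (x axis), with the member median as a solid line and that of all tested genes dotted; RLE stands for DESeq2 size factors. The member median is -1.27 under TMM and 0.45 under cyclic loess, and lies below the median of all tested genes except under cyclic loess.

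Most members carried an orthologous region. Each of the 97 genes was matched to 1 region that the table classes, and 70 of these (72.2%) were orthologous, 16 (16.5%) orphan and 11 (11.3%) paralogous. Over the 13212 genes with a matched region the shares were 44.1%, 27.8% and 28.1%, and over the tested genes 56.8%, 23.7% and 19.5%. Genes within the limit in hyphae alone were orthologous in 61.1% of 198 cases, and those within it in oidia alone in 68.9% of 193 cases. These differences were not tested. The share also rested on ranking by raw count, since among the 94 genes that ranked 300 or better in all libraries by reads per kb of the region 58.5% were orthologous and 27.7% orphan.

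**Figure D4:**
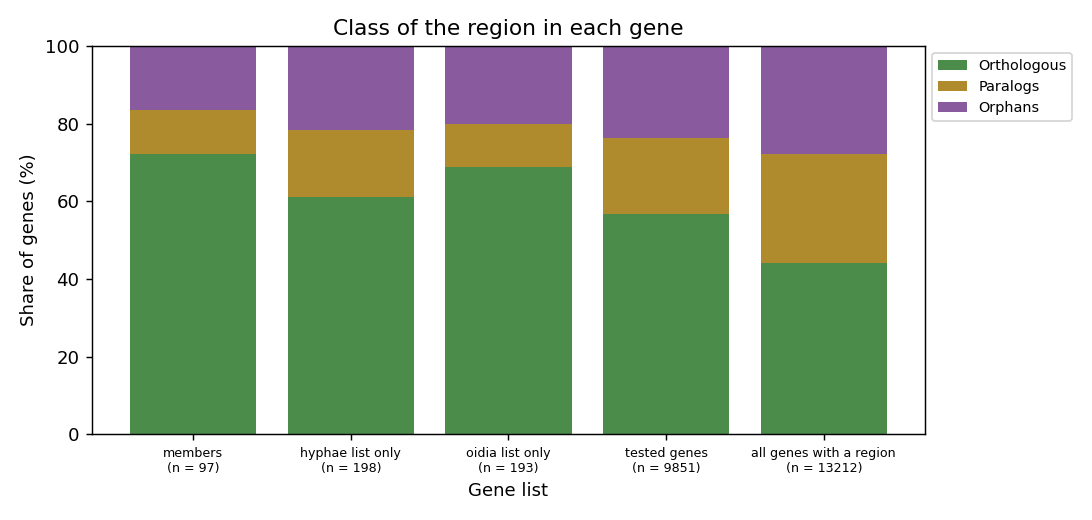
Share of genes (y axis, percent) whose region is classed orthologous, paralogous or orphan (stacked colours), for the members, the genes within the limit in 1 stage alone, the tested genes and all genes with a region (x axis). Orthologous regions make up 72.2% of the members and 44.1% of all genes with a matched region.

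The 16 orphan members held 4.70% of gene reads in hyphae and 9.31% in oidia, and the 70 orthologous members, whose regions were longer, held 9.42% and 11.2%. Of the orphans 5 stood at least 100 places better in oidia, 7 at least 100 places better in hyphae, and 4 lay within 100 places. Those 4 were CC1G_10834, CC1G_12348, CC1G_08677 and CC1G_04203, the last with mean ranks of 89.5 in hyphae and 22.5 in oidia. Places do not measure folds here, since CC1G_12348 and CC1G_08677 had TMM log2 fold changes of -4.23 and -3.58. The median under TMM was -2.39 over the 16 orphan members and -1.20 over the 70 orthologous ones. CC1G_01131 and CC1G_04378 had the best hyphal ranks of the 7, with means of 14 and 18.5 against 184 and 138.5 in oidia. The median region length was 780 bases in orphan and 1598 bases in orthologous members. CC1G_04203 was named after its values were seen.

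The 11 paralogous members included the largest TMM fold in each direction, CC1G_14508 and CC1G_10395. Paralogs are related copies within a genome, and the treatment of reads that fit several copies was not stated in the sources used, so the counts of these 11 genes are uncertain. Together they held 1.44% of gene reads in hyphae and 2.72% in oidia.

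Region lengths of members ran from 105 to 8672 bases with a median of 1489, and the median was 1440 over all genes with a region and 1592 over the tested genes. Genes within the limit in hyphae alone had a median of 1159.5 bases and those within it in oidia alone 1841. The counts, ranks and shares of reads given above describe where a library's reads fell and grow with gene length as well as with level. Reads per kb of the region correct for its length but leave out gene reads that lie beyond it. They therefore compare levels between genes only roughly. On that scale 57 of the 97 members (58.8%) were among the 94 genes that ranked 300 or better everywhere, of which they made up 60.6%. Members in the per-kb list had a median region of 1009 bases, and the others 2258.5.

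CC1G_10834 also had the best worst rank per kb, at 1, 1, 3 and 3. CC1G_14508, whose region of 105 bases is the shortest of the set, followed at 8, 8, 2 and 2. CC1G_05406 came after it with 13188, 10451, 26089 and 22526 reads per kb, at ranks 29, 29, 27 and 26. At the other end CC1G_15704, whose region of 8672 bases is the longest, had 369, 288, 485 and 408 reads per kb and ranked 956 at best.

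The members lay on all 13 chromosomes, with 15 on chromosome 2, 14 on chromosome 1 and 13 on chromosome 3. As a share of a chromosome's genes they ranged from 0.416% on chromosome 6 to 1.04% on chromosome 2. Chromosome ends were taken as the start of the coordinates and the last listed position. Within 100 kb of such an end lay 4 members (4.12%), against 6.84% of all genes with a region and 4.40% of the tested genes. Within 100 kb of a listed centromere lay 6 of 72 members (8.33%), against 7.68% of all genes on those chromosomes and 7.97% of the tested ones. No member's region overlapped a repetitive row, which 2.09% of all regions and 0.193% of those of tested genes did.

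CC1G_08572 and CC1G_08573 on chromosome 9 were the only next neighbours in the set by the RefSeq gene order. CC1G_08572, with an orthologous region from 2030145 to 2030577, ranked 46, 49, 100 and 124. CC1G_08573, with an orphan region from 2031366 to 2031814, had counts of 3092, 2251, 14680 and 12421 and ranked 191, 207, 41 and 39. CC1G_08573 stood more than 100 places better in oidia, while CC1G_08572 had better ranks in hyphae but lay within 100 places. Their TMM log2 fold changes were -0.23 for CC1G_08572, which turned to 1.32 under total counts, and -3.15 for CC1G_08573.

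The gene spans of CC1G_03297, CC1G_00362, CC1G_12045, CC1G_14508, CC1G_07413 and CC1G_10446 overlapped that of another gene. These 6 were 6.19% of the members, against 2.14% of all genes with a region and 2.68% of the tested genes. The share was 4.04% for genes within the limit in hyphae alone and 4.15% for those within it in oidia alone. These differences between lists were not tested. Whether counting used strand was not stated in the sources used, so the reads of such genes may belong partly to the other gene.

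The table counts reads for the whole gene and again for the classed region inside it, and the rule did not use the ratio of these counts. A ratio of 1 means that the region holds as many reads as the gene, a lower ratio that gene reads lie outside the region, and a higher one that the region holds reads not counted for the gene. In 29 of the 97 members (29.9%) the ratio was lower in hyphae by at least 0.1 with no overlap between the stages, which was so in 7.86% of 4416 genes with at least 50 reads in every library. It was lower in oidia by that much in 8 members (8.25%), against 5.48% of those genes. Every member had far more than 50 reads. With a minimum of 200 reads, chosen after seeing the data, the shares were 10.6% and 4.09% of 1759 genes, and the member counts stayed at 29 and 8. With 2 libraries per stage the smallest two-sided p of an exact permutation test is 0.333, so no single ratio is tested.

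Members also had more sequence outside the region, a median of 212 bases against 3 over the 4416 genes. Among genes with at least 50 bases outside it, 28 of 82 members were lower in hyphae, against 17.3% of 1602 genes, and 8 were lower in oidia, against 9.8%. Without that minimum of bases, 29.9% of members were lower in hyphae. On the same footing so were 24.5% of 184 genes within the rank limit in hyphae alone. For genes within it in oidia alone the share was 11.1% of 180. Library kit and stage cannot be told apart in this ratio.

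CC1G_08677 had the largest difference toward a lower ratio in hyphae. Its ratios were 0.376, 0.394, 0.830 and 0.847. CC1G_01283 followed with 0.561, 0.499, 0.923 and 0.929. CC1G_03598, whose region has 324 bases and which was named after its values were seen, had 0.306, 0.285, 0.595 and 0.595. In all 3 genes the stages were far apart beside the gap between replicates. CC1G_14508 had the largest difference the other way, with 1.02, 1.01, 0.548 and 0.565, and it is 1 of the genes that overlap another. CC1G_08572 and its neighbour CC1G_08573 were also lower in oidia, with 0.962, 0.955, 0.756 and 0.731 for the first and 0.873, 0.878, 0.706 and 0.737 for the second.

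**Figure D5:**
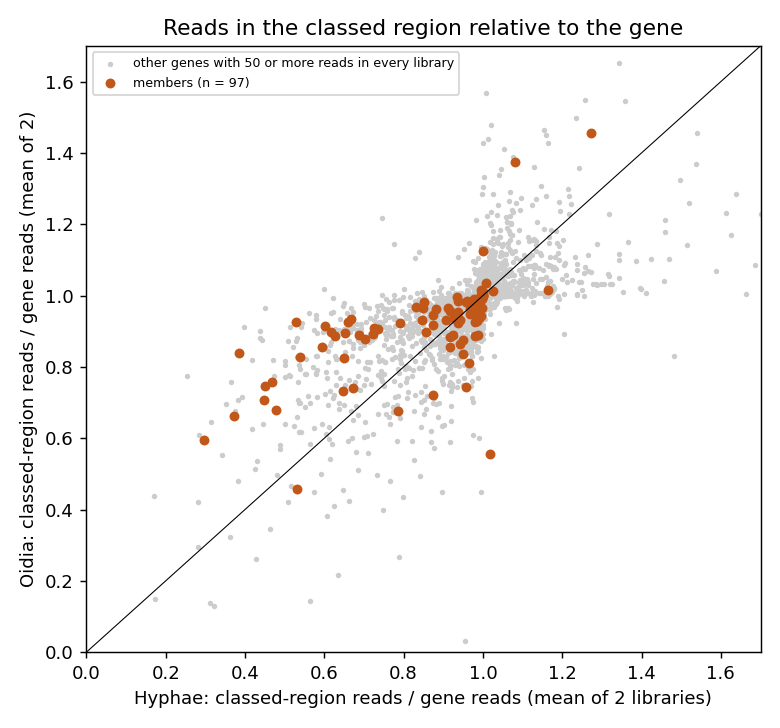
Reads in the classed region divided by reads of the gene, mean of 2 libraries, in hyphae (x axis) and oidia (y axis), with a line of equality, for members (orange) and for other genes (grey) with at least 50 reads in every library, of which 30 lie outside the axes. CC1G_08677, at 0.376 and 0.394 in hyphae and 0.830 and 0.847 in oidia, stands furthest from equality among members that are lower in hyphae.

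For the leading member CC1G_10834 the ratio was 1.27, 1.27, 1.44 and 1.48, so its region held more reads than were counted for the gene in every library. In oidia replicate 1 the region had 565373 reads beside the gene count of 393783. The shares of reads given above for this gene use the gene count and are the lower of both. CC1G_11527, named after its values were seen, also exceeded 1 throughout, at 1.09, 1.07, 1.37 and 1.38.

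The limit of 300 fell within a continuous range of counts. Just inside it stood CC1G_06385, with counts of 2152, 1593, 9419 and 8024 and a worst rank of 298. CC1G_01283, with 2239, 1745, 2838 and 2358 reads, and CC1G_08477, with 2119, 1599, 3530 and 2682, both had a worst rank of 296. Just outside stood CC1G_02260, with counts of 2060, 1618, 21712 and 17792, which ranked 302 in hyphae replicate 1 and 28 in both oidia libraries. CC1G_08808, with 3367, 2452, 2783 and 2393 reads, ranked 302 in oidia replicate 1, and CC1G_02940, with 2049, 1625, 3465 and 2821, ranked 303 in hyphae replicate 1. Each of these 3 genes met the limit in the other 3 libraries.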

How the data were processed

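Poly(A)-selected RNA of 2 oidia and 2 hyphae libraries was sequenced, and titles gave each library's stage. The submitters' processing notes name TopHat, Bowtie 0.12.7 and DESeq. Genome build, annotation and counting settings were not stated in the sources used. Per the file headers, the authors deposited read counts per gene and element, and a mean signal per stage. That signal equalled size-factor-scaled counts (median of ratios) in 55712 of 55712 values (relative tolerance 1e-06) and served for 1 alternative ranking.

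Genes were ranked by raw count within each library. The table's regions were matched to genes by position in the RefSeq gene list of assembly CC3. For 13212 genes 1 region matched, of which 5608 began at the gene's first base and 5576 began 3 bases inside it. The list named 13340 genes by locus tag alone, so 0 of 14 keyword lists found a gene. All genes were fitted with edgeR 4.0.16 in R 4.3.3 (quasi-likelihood, TMM, filterByExpr, Benjamini-Hochberg). TMM factors were 1.72 and 1.71 for hyphae and 0.589 and 0.580 for oidia. Fold-change SEs are approximate, being derived from the F statistic. Alternatives used DESeq2 1.42.0 and limma 3.58.1.

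Named genes were the 10 with the best worst rank, the 8 largest changes each way, the 5 closest mean ranks, the 3 nearest each side of the limit, the 3 largest replicate ratios, and neighbours. Genes outside this rule are marked in the text, except CC1G_08317, level at a closest mean rank, and the members listed because their gene spans overlap another gene. Members and lists were chosen with earlier results of these data known. The labels do not say whether replicates are separate cultures, and the spread between them, on which p-values rest, may be technical.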

Additional observations from a re-analysis of the deposited data

How the results depend on the processing

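The member count was 44 with a limit of 200 and 147 with 400. It was 94 by reads per kb and 102 by the deposited means, and between 97 and 100 without each library. Without the gene ranked 1 in each library in the denominator, which is not a member, members held 16.2% of hyphal and 25.3% of oidia gene reads. The member median log2 fold change was -1.34 with DESeq2 size factors, -1.34 with the DESeq2 Wald test, -0.9995 with upper quartiles, -1.23 with no low-count filter, and reversed to 0.28 with total counts and 0.45 with cyclic loess. It ran from -1.29 to -1.26 without each library. Of all genes, 7407 were higher and 1547 lower in hyphae with total counts, against 4455 and 3727 with TMM. Members called were 55 higher and 35 lower with total counts and 60 and 31 with cyclic loess (all genes 3692 and 3611). Single genes reversed under total counts (CC1G_02036 to 0.18, CC1G_04470 to 1.34, CC1G_03297 to 0.28), cyclic loess (CC1G_10834 to 0.27, CC1G_06090 to 0.45, CC1G_05406 to 0.61, CC1G_02036 to 0.54, CC1G_04470 to 1.81, CC1G_03297 to 0.60) and upper quartiles (CC1G_04470 to 0.054). The cause was not tested. With the replicate number as a block the member median was -1.27 and 91 members passed, as without it. Same-numbered libraries share only a number (correlation of deviations -0.00835). The alternatives for the ratio of region to gene reads were chosen after seeing the data. With a difference of 0.2 it was lower in hyphae in 18 of the 97 members, against 3.83% of the 4416 genes with at least 50 reads. In oidia it was lower in 2 members, against 2.08% of those genes. With 0.05 the members were 36 and 17, against 13.3% and 10.2% of those genes. Without each library the counts were 29 to 30 and 7 to 8. Every member had over 1000 reads in each library, so depth limits the oidia and hyphae ranks little.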
